A study of Mus musculus with 4 samples.

Results

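The regions described here are 1-kb stretches of the mouse genome (mm10, counted from position 1 of each autosome) that hold few CpGs in the data, lie apart from CpG-dense stretches and carry little DNA methylation in liver. A tile was a member when 10 or fewer of its CpGs were listed in any library, when neither adjacent tile had 20 or more listed CpGs, when at least 3 of its CpGs had 10 or more reads in every library (analysed CpGs), and when the mean of its methylation levels over the 4 libraries was below 20%. The members were thus selected on their measured level. There were 4666 members among 164026 tiles with at least 3 analysed CpGs, a total not limited to autosomes. On the autosomes the first 3 conditions alone gave 107822 tiles, called CpG-poor distal tiles here, so 4.33% of these were members and 103156 lay at 20% or more. Distal refers to CpG-dense tiles only: 512 members held a RefSeq gene start, and for those the word does not hold.

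The assay was reduced representation bisulfite sequencing, in which restriction fragments rich in CpGs are sequenced after bisulfite has turned unmethylated cytosines into uracils. The livers came from 6-week-old C57BL6/N mice, with 2 libraries of the genotype Pnpla7+/+ (WT) and 2 of the genotype Pnpla7-/- (KO). Pnpla7 encodes a lysophospholipase that forms glycerophosphocholine, and the comparison asks how its absence bears on liver methylation. All 4 libraries are whole liver of 1 strain and age, so the levels average over all liver cell types. Whether each library stands for its own mouse is not stated, and p-values then cover the spread between libraries, which may be technical.

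Most CpGs of a mammalian genome are methylated, and CpG islands at gene starts are the main exception. CpG-poor stretches of low methylation are a further class: they are commonly found at enhancers and at CpG-poor promoters bound by transcription factors of the tissue. In hepatocytes such factors include HNF4A, the FOXA and C/EBP proteins and nuclear receptors, which maintain genes of plasma proteins and of metabolism.

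Members with a gene start show the class at base level. The sequences below run from 250 bases before to 50 after the RefSeq start (RefSeq, build GRCm38.p6), 5′ to 3′ on the strand of the gene, and capitals mark the CpGs with 10 or more reads in every library. They are Hnf4a (a transcription factor of hepatocytes; chr2:163506607-163506906, plus strand), Fgb (the beta chain of fibrinogen; chr3:83049814-83050113, minus strand), Ambp (the precursor of alpha-1-microglobulin and bikunin; chr4:63154123-63154422, minus strand), Gpam (the mitochondrial glycerol-3-phosphate acyltransferase; chr19:55127189-55127488, minus strand), Nr1h3 (the oxysterol receptor LXR alpha; chr2:91195067-91195366, minus strand) and Gabrb2 (a neuronal GABA receptor subunit; chr11:42420951-42421250, plus strand). The first 5 are genes used in hepatocytes and the last is a neuronal gene shown for contrast. Whether liver uses the starts shown was not tested. Hnf4a had a further start tile, not a member, with 15 listed CpGs and a mean of 9.55%.
Hnf4a: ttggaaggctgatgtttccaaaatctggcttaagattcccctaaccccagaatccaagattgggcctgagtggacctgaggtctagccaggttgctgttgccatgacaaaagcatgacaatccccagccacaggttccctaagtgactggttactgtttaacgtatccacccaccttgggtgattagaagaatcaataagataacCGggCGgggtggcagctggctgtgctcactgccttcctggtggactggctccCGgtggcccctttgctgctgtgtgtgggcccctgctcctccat
Fgb: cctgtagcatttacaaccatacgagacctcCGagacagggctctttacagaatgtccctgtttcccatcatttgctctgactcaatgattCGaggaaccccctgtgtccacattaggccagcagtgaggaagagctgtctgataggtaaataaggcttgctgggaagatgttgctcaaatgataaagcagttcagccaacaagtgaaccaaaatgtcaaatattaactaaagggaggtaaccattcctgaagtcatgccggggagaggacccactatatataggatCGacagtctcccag
Ambp: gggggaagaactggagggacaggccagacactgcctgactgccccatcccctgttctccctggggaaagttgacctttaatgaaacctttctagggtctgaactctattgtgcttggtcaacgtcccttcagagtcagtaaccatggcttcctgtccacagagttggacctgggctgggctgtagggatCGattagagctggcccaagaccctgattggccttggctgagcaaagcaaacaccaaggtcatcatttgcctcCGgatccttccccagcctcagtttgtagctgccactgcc
Gpam: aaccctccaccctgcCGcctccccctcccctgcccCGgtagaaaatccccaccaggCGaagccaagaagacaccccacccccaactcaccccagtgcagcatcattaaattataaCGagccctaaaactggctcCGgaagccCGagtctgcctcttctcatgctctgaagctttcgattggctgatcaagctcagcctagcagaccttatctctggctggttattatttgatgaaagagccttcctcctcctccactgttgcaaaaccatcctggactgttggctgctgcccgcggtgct
Nr1h3: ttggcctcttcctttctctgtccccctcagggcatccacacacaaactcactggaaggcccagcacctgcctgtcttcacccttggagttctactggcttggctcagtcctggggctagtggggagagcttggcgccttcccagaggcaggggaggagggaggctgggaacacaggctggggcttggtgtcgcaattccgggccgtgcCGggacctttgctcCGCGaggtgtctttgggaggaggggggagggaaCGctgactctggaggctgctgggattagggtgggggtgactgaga
Gabrb2: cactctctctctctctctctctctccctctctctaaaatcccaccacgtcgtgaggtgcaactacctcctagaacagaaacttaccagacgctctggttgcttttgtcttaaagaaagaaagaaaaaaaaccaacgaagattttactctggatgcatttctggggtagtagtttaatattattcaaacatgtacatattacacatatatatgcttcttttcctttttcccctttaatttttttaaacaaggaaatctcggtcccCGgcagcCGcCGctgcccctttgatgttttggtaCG

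In these windows the analysed CpGs were few and low. The Hnf4a window held 4 CpGs, of which 3 were analysed, with means over the 4 libraries of 9.37% to 15.7%. The Fgb window held 5 CpGs, and its 3 analysed CpGs averaged 12.8% to 14.7%. The 2 analysed CpGs of Ambp averaged 10.1% and 14.7%. In Gpam the 6 analysed CpGs ran from 3.76% to 13.7%, and in Nr1h3 the 4 analysed CpGs ran from 0.962% to 6.34%. The 4 analysed CpGs of Gabrb2 were lower than those of the plasma protein genes, at 1% to 2.09%.

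The level used to choose the members is described first, with no test. Pairs of library values are given as replicate 1, then replicate 2. The members averaged 9.30% and 9.28% in WT, and 10.3% and 9.15% in KO. By 10-point steps of the mean level from 0 upward, the CpG-poor distal tiles numbered 2363, 2303, 2085, 2110, 2569, 4080, 7311, 15103, 33398 and 36500. No gap in this distribution set the limit of 20%. The members just inside it were in Gm51502 (19.990%) and E130006D01Rik (19.992%), and the tiles just outside were near Neat1 (20.005%) and in Gm28722 (20.015%). Of the members, 1445 (31.0%) had a mean level below 5% and 2363 (50.6%) below 10%.

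**Figure D1:**
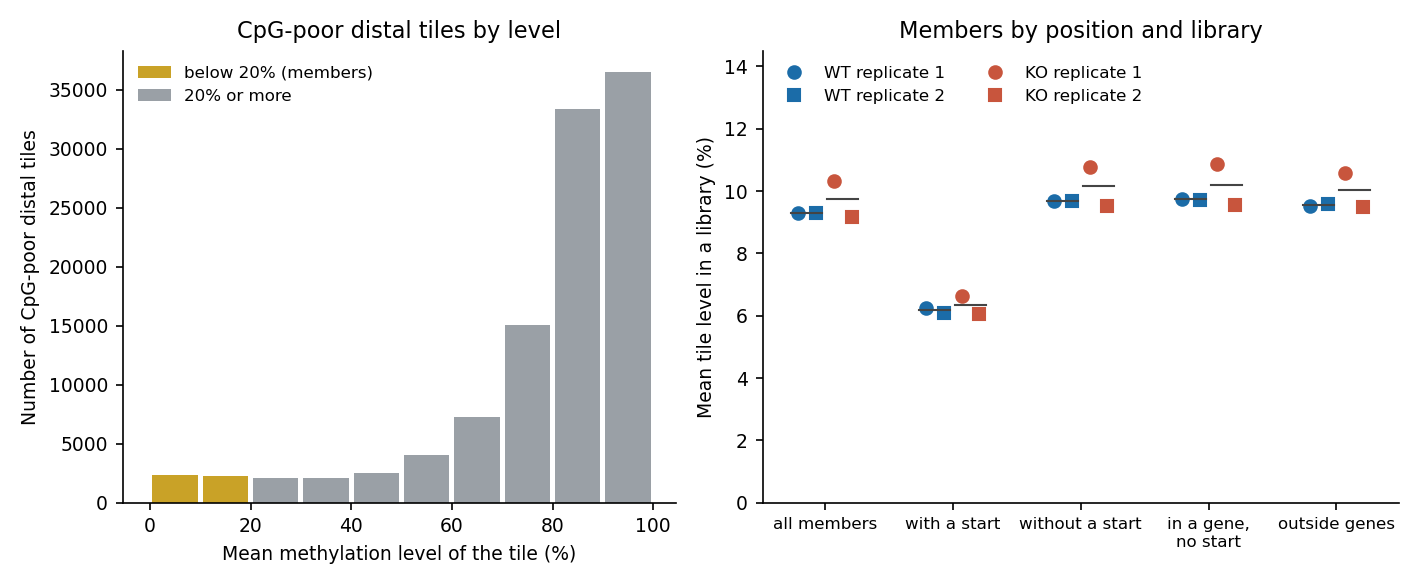
Left, number of CpG-poor distal tiles per 10 points of mean methylation level, with the members coloured. Right, mean tile level (%) in each library (points) and genotype (lines), for all 4666 members and for members split by position; KO replicate 1 is the highest library in each split, and the members with a listed start lie near 6% against 9 to 11% for those without a listed start.

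Within a member, the CpGs mostly agreed. The 4666 members held 21883 analysed CpGs, and 88.7% of these were below 20% as a mean over libraries. In 2916 members (62.5%) every analysed CpG was below 20%. Only 200 CpGs (0.914%) reached 50% or more, and they lay in 182 members. The most mixed member, chr17:69692001-69693000, with no gene within 50 kb, had a CpG at 83.3% and 63.6% in the WT libraries and 90.9% and 81.8% in the KO libraries. Its other CpGs, at the far end of the tile, were at 2.94% or less. The members in Gm36171 and near Nfasc, next in this order, likewise joined a CpG above 60% in every library to CpGs mostly below 10%.

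The measured stretch of a member was short. Its analysed CpGs numbered 4 as a median and spanned a median of 136 bp (quartiles 76 and 218 bp), so the level speaks for that stretch and not for the whole 1 kb. The median depth in members was 22 and 26 reads per CpG in the WT libraries and 26 and 27 in the KO libraries. Over the 4 libraries the median was 26.4 reads per CpG, against 22.8 in the other CpG-poor distal tiles. In 72 members no methylated read was seen in any library. By depth and CpG number, the 5 lowest of these were in Tex14, in Sbp, in Creb3l1 (a transcription factor of the endoplasmic reticulum), in Ccdc97 and in Gm39469, each with 5 to 9 analysed CpGs.

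9 members had over 100 reads per CpG. The deepest were in Gm30821 on chromosome 18 (1987 reads per CpG), near Gm23852 (1761), near Cyp2c50 (390.2), in Gnb1l (312.1) and near LOC115490388 (145.3). In Gm30821 the level was 7.38% and 5.99% in WT and 8.25% and 8.59% in KO. Whether these reads come from several copies in the genome was not tested. Single tiles were less alike between libraries than the class means: the median absolute difference between 2 libraries at a member was 2.5 to 2.79 points over the 6 pairs of libraries. As a description over tiles, which share libraries and are not independent, Pearson's r between libraries was 0.688 to 0.738 over the members and 0.916 to 0.923 over the other CpG-poor distal tiles, which span a wider range of levels.

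The rule did not use the level of the neighbouring tiles. For members and other CpG-poor distal tiles alike, it kept adjacent tiles under 20 listed CpGs. Low methylation often went on next door. The 2342 analysed tiles adjacent to members averaged 34.6% and 34.2% in WT, and 35.4% and 34.7% in KO. Of them 51.2% were below 20%. Tiles adjacent to other CpG-poor distal tiles (30795) averaged 74.9% and 74.5% in WT and 75.3% and 75.2% in KO, and 6.56% were below 20%. Each library showed the same gap of about 40 points between the classes. At 2 kb from members the mean was 47.3% on the left and 49.0% on the right. At 10 kb it was 56.8% and 56.5%, below the 63.7% and 63.9% at 10 kb from the others. Not every kind of member showed that gap. At 10 kb from members with a start the mean was 63.4% and 63.5% (87 and 78 tiles). At 10 kb from members over 10 kb from any start it was 66.0% and 64.6% (164 and 165 tiles). Between genotypes the adjacent tiles were at 34.4% ± 0.270 in WT and 35.1% ± 0.522 in KO (SD, n = 2 each). Both KO libraries lay above both WT libraries there, by a margin of under 0.1 points (exact permutation test, two-sided p = 0.333, the smallest that 2 libraries against 2 allow).

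**Figure D2:**
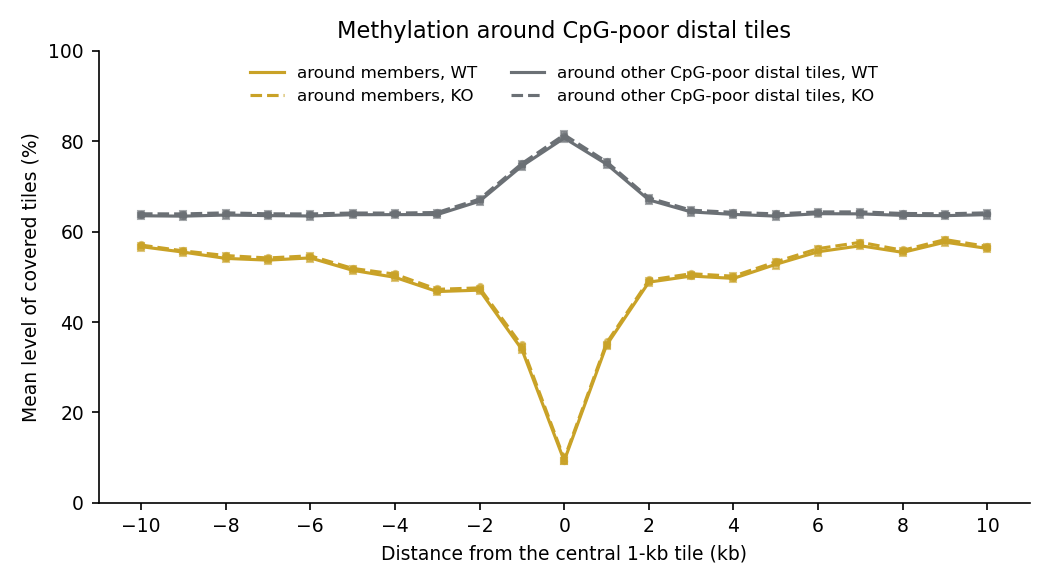
Mean level (%) of covered tiles against distance (kb) from a central tile, for members and for other CpG-poor distal tiles. Lines are genotype means and small marks are libraries; the central values were used by the rule, and the tiles 1 kb away average 34 to 35% around members against 75% around the others.

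Members also occurred together. When members with at most 1 tile between them were joined, 3982 stood alone, 306 runs held 2, 20 held 3 and 3 held 4. The run in Elovl2, an elongase of polyunsaturated fatty acids expressed in liver, had 4 tiles between chr13:41208001 and 41214000, with mean levels of 15.6%, 15.2%, 12.8% and 11.6%. In Nectin1, an adhesion molecule, the 4 tiles were at 12.6%, 18.6%, 8.70% and 13.7%. In the run of Gm31432 the tile holding the start was at 0.556%, and the other three were at 15.9%, 2.93% and 1.52%.

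The position of members differed from that of the other CpG-poor distal tiles mainly near gene ends. In a gene of any type lay 3200 members (68.6%) and 65.9% of the others. An annotated gene end was within 1 kb of 1378 members (29.5%) and of 12.9% of the others. RefSeq starts were known for 27025 of 34631 protein-coding and lncRNA genes, with none on 1 autosome, so distances to a start were read only where no gene without a listed start was nearer. This left 3478 members and 76026 others. A start lay inside 512 of these members (14.7%) and inside 1.93% of the others. At the other extreme, 8.65% of the members and 19.5% of the others were over 50 kb from any start. The same counts read along the distance show a gradient: 25.9% of CpG-poor distal tiles with a start were members, then 14.9% with a start up to 1 kb away, 4.63% from 1 to 10 kb, 3.09% from 10 to 50 kb and 1.99% beyond 50 kb.

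Distance from a CpG-dense tile (20 or more listed CpGs) gave a smaller gradient. Members made up 7.12% of the CpG-poor distal tiles within 5 kb of such a tile, 4.59% from 5 to 20 kb and 3.7% beyond 20 kb. More than 20 kb from any dense tile and more than 10 kb from any start, 957 of 37613 tiles (2.54%) were still members. Their means were 10.6% and 10.9% in WT and 12.1% and 10.7% in KO. By chromosome the share of members ran from 3.5% on chromosome 12 to 5.16% on chromosome 13.

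Members with a start were lower than the rest of the class. Their means were 6.26% and 6.10% in WT, and 6.63% and 6.07% in KO, with a median tile level of 3.82%. Members without a listed start averaged 9.68% and 9.67% in WT and 10.8% and 9.53% in KO, and every library of the first kind was below every library of the second. Below 5% mean level, 25.3% of the members with a known distance held a start, against 8.40% of those from 15% to 20%.

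CpG-poor here means few listed CpGs, and listing depends on the restriction fragments read. In the 596 windows of 300 bases around starts in members, the sequence held a median of 8 CpGs, of which a median of 2 were listed. In 232 of these windows (38.9%) the sequence held 10 or more CpGs. For starts in other CpG-poor distal tiles (1610) the median was 5 CpGs and 10.2% held 10 or more, and for all 31365 autosomal starts in the table the median was 7 and 43.9% held 10 or more. Part of the starts in members is therefore CpG-rich in sequence, and of the windows printed above Gabrb2 and Gpam hold 9 CpGs each, with 5 and 7 listed.

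Around the starts in members the low stretch was narrow. From 250 bases before to 250 after the start, CpGs averaged 5.40% and 4.42%. The mean was 12.4% from 500 to 250 bases upstream and 6.08% from 250 to 500 bases downstream. Farther out it varied from bin to bin: from 1 to 3 kb upstream between 33.4% and 57.5%, and from 1 to 3 kb downstream between 34.8% and 58.7%. At starts in other CpG-poor distal tiles the level was near 70% through the start and lower farther out, at 43.8% and 43.6% in the outermost bins. The central bins are fixed in part by the rule, and the bins beyond 1 kb are not.

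**Figure D3:**
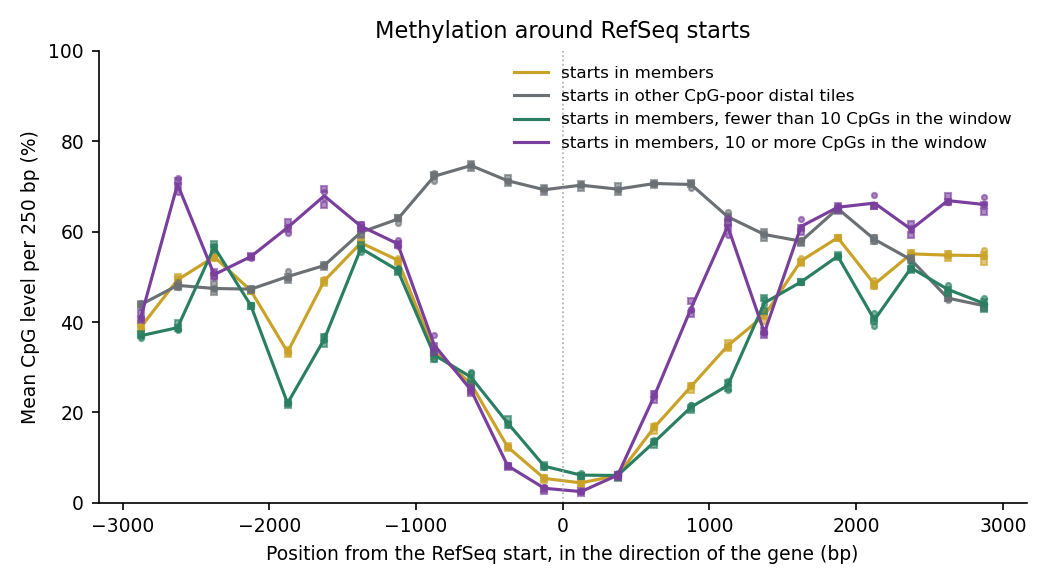
Mean CpG level (%) per 250 bp against position from the RefSeq start in the direction of the gene. Lines are means over libraries, small marks are the libraries, and starts in members are also split at 10 CpGs in the 300-base window; the line for members is at 4.42 to 6.08% from 250 bp before to 500 bp after the start and varies between 33.4% and 58.7% beyond 1 kb.

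Genes differed in how often a start in a CpG-poor distal tile was in a member. Of 1993 genes with such a start, 534 (26.8%) had it in a member. The share was 37.9% for protein-coding genes (373 of 983) and 15.9% for lncRNA genes (161 of 1010). In lists of genes chosen for known roles, the starts in members were those of 6 of 8 plasma protein genes (Ambp, Apoa2, F10, Fgb, Igfbp1 and Itih1), 4 of 5 genes of hepatocyte transcription factors (Hnf4a, Nfic, Nr0b2 and Nr1h3), 1 of 4 hepatocyte enzyme genes (Gpam) and both neuronal genes (Cntnap2 and Gabrb2). Of the phospholipid and choline genes 0 of 3 starts were in members, and of the leukocyte genes 0 of 1. These counts are small and carry no test.

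Letters of known binding motifs were counted in the 300-base windows as a description. The motifs were HNF4A (CAAAGTCCA), C/EBP (TTGCNNAA), FOXA (TGTTTAC) and ETS (CCGGAAGT) on both strands, and the TATA box (TATAAA) on the strand of the gene. None of these holds another. CAAAGTCCA occurred in 9 of the 596 windows of members (1.51%), in 7 of 1610 windows of starts in other CpG-poor distal tiles (0.435%) and in 0.488% of all autosomal windows. The 9 genes included Pipox (a peroxisomal sarcosine oxidase), Sec16b (a protein of secretory transport), Lipt1 (a lipoyltransferase), Clec14a and Trpv6, and 4 lncRNA genes. The C/EBP letters were in 14.6%, 12.3% and 10.9% of the same 3 sets, and the FOXA letters in 4.70%, 3.48% and 3.71%. ETS letters were in 3.36%, 1.61% and 3.95%, and TATAAA in 7.21%, 7.70% and 8.32%. A CTCF motif was in 9.40%, 6.40% and 8.73%, and an HNF1 motif in 1 window of the members and 0 of the other CpG-poor distal tiles. The 3 sets differ in CpG content. Among windows with fewer than 10 CpGs the HNF4A letters were in 2.20%, 0.484% and 0.660%, C/EBP in 16.2%, 12.7% and 14%, FOXA in 5.49%, 3.46% and 4.70%, and CTCF in 7.14%, 6.37% and 4.71%. There ETS, at 1.92%, 1.45% and 0.836%, was above the share of all starts in place of below it, and TATAAA was at 8.52%, 8.03% and 12.2%.

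Among the gene lists, the share of members was highest in the 3 lists of hepatocyte genes. Counting CpG-poor distal tiles in a gene or within 2 kb of it, 29 of 115 tiles of the plasma protein list (25.2%) were members, 46 of 297 (15.5%) of the hepatocyte transcription factor list and 24 of 213 (11.3%) of the hepatocyte enzyme and transporter list. Over all protein-coding genes the share was 4.35% and over all CpG-poor distal tiles 4.33%. For the neuronal list it was 4.67% (15 of 321), for the endothelial, stellate and biliary list 4.03% (6 of 149), for the phospholipid, choline and methyl donor list 5.39% (9 of 167) and for the Kupffer cell and leukocyte list 1.47% (1 of 68, in Cd14). The liver lists stayed above the share of all tiles without a listed start as well, at 20.8%, 14.2% and 11% against 3.92%. Tiles with an unknown distance to a start are counted there, so unlisted starts were not removed. Over 20 kb from a dense tile the shares were 16.7%, 10.7% and 13.7% against 3.7%. In that split the phospholipid, choline and methyl donor list was at 8.70% (6 of 69), close to the transcription factors, and the neuronal list at 4.98% (14 of 281). The phospholipid and enzyme lists share genes: Pemt, with 2 members, and Mat1a, with 1, stand in both. Counted by gene, a member lay in or beside 19 of 41 plasma protein genes (46.3%), 23 of 33 transcription factor genes (69.7%) and 17 of 50 enzyme and transporter genes (34%), but also 11 of 24 neuronal genes (45.8%). The lists were chosen with earlier results of these data known, and tiles of a gene are not independent.

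**Figure D4:**
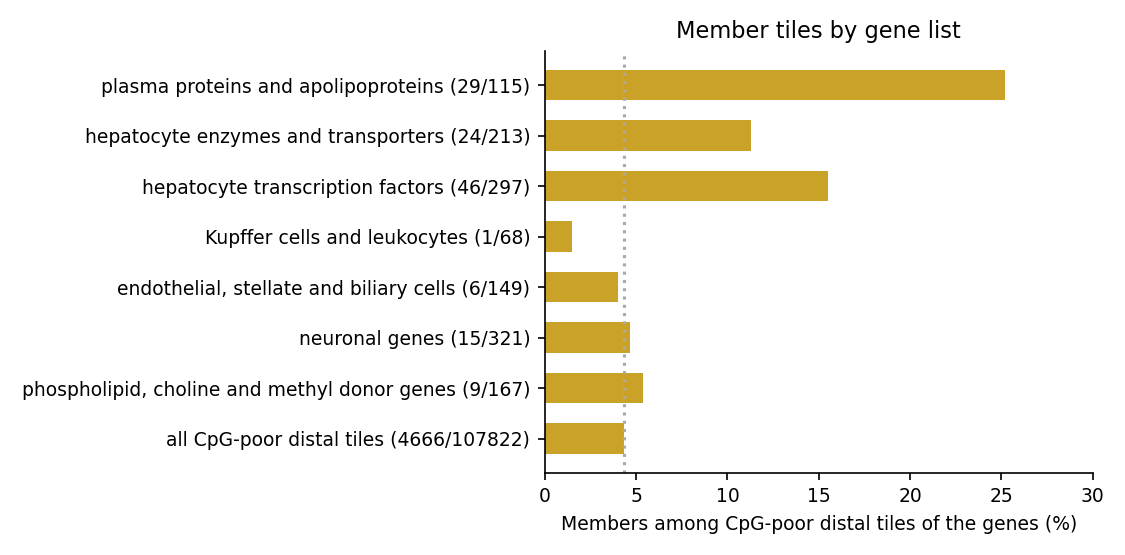
Share (%) of CpG-poor distal tiles in or within 2 kb of the genes of each list that were members, with the counts beside the names; the dotted line is the share over all CpG-poor distal tiles. The 3 hepatocyte lists lie at 11.3 to 25.2% and the other lists at 1.47 to 5.39%.

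The median level of the plasma protein members was 11.6%, against 9.84% over all members. Apoa2, an apolipoprotein of HDL, had 3 of them. The lowest, chr1:171221001-171222000, also overlapped Tomm40l and was at 0.350% and 0% in WT and 0.629% and 0.875% in KO. The tile at chr1:171225001-171226000 was at 17.8% and 15% in WT and 21.2% and 25% in KO. In Apob, the main protein of VLDL and LDL, a tile of 4 analysed CpGs was at 2.0%, 6.8%, 4.46% and 3.85% in the order WT, KO. In Alb, which encodes albumin, the member was at 14.2%, 13.1%, 17.8% and 13.7% in the same order, and KO replicate 1 was the highest. The Fgb tile printed above stood out for a single library: it was at 11.1% and 15.1% in WT, and at 32.0% and 10.4% in KO. F2, which encodes prothrombin, held 3 members at 8.04% to 12.8%, and Ahsg, which encodes fetuin-A, held 3 at 11.1% to 11.6%. The member in Apoc1, an apolipoprotein of triglyceride-rich particles, averaged 5.60%.

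The enzyme and transporter members had the same median, 11.6%. Low members by mean were in Cyp27a1, the sterol 27-hydroxylase (3.47%), Fbp1, a gluconeogenic phosphatase (7.05%), and Pck1, the cytosolic phosphoenolpyruvate carboxykinase (7.63%). Pck1 held 3 members and Pemt, which makes phosphatidylcholine from phosphatidylethanolamine, held 2. The Pemt tile at chr11:59991001-59992000 was at 12.3% and 11.5% in WT and 17.9% and 25.2% in KO, without overlap between the groups (adjusted p = 0.739, moderated quasi-binomial model, limma). Mat1a, the liver methionine adenosyltransferase, had a member at 3.88% and 6.62% in WT and 14.4% and 7.79% in KO.

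The transcription factor members were lower, with a median of 7.94%. In Foxa1, a pioneer factor, a tile of 3 CpGs had no methylated read in any library. The start tile of Nfic, a nuclear factor I gene, was at 0.457% and 0.442% in WT and 0.595% and 0.625% in KO. A further tile of Nfic was at 0.315% and 0.210% in WT and 1.41% and 1.85% in KO, and a tile of Rxra, the partner of many nuclear receptors, averaged 1.07%. Rxra held 6 members, Hnf4a 5, Nfic 4, and Nfia, Klf15 and Onecut1 3 each. The Hnf4a start tile that was a member was at 12% and 11.6% in WT and 7.22% and 11.4% in KO. The other 4 members of Hnf4a averaged 10.9% to 17.8%.

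Members in the neuronal genes were low. The 15 neuronal members had a median of 2.51%. The lowest were in Nrxn3 (1.02%), Dlg2 (1.33%) and Gria1 (1.45%), and at Snap25 (1.43%), all genes of synapses. In the endothelial, stellate and biliary list the lowest were in Col1a1 (1.31%), the fibrillar collagen of stellate cells, Pecam1 (4.17%), an endothelial adhesion molecule, and Lhx2 (4.22%). The single leukocyte member, in Cd14, was at 4.26% and 0% in WT and 1.35% and 5.41% in KO. Of the phospholipid and choline list, Cth, which makes cysteine from cystathionine, had a member at 0%, 0%, 2.40% and 0%, and members also lay in Enpp2 (4.17%), the gene of autotaxin, and Aldh7a1 (6.96%), the betaine aldehyde dehydrogenase.

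As a check of the tissue, analysed tiles at starts of the hepatocyte markers Apoa2, Apob, Hnf4a and Fgb had means of 0.463% to 19.8%, but a tile at Serpina1b was at 45.3%. Both ends of the first range were Apoa2 tiles, and the lowest also overlapped Tomm40l. Neither Apoa2 start window of 300 bases held an analysed CpG. Start tiles of Kdr, Lrat, Reln and Des, markers of endothelial and stellate cells, were also low, at 0.585% to 8.94%, and hold 25 or more listed CpGs. The start tile of Krt7, a marker of cholangiocytes, was at 31.4% and 25% in WT and 32.1% and 18.1% in KO. No start tile of the leukocyte markers was analysed. The covered starts thus check the labelled tissue only in part.

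Between genotypes the class as a whole did not separate. The mean over members was 9.29% ± 0.013 in WT and 9.73% ± 0.817 in KO (SD, n = 2 each), a difference of 0.440 points (exact permutation test, two-sided p = 1). KO replicate 1 was the highest library at 10.3% and KO replicate 2 the lowest at 9.15%, so the groups overlapped. Without KO replicate 1 the difference was -0.137 points, and without KO replicate 2 it was 1.02. Median depth at the members was 22 to 27 reads per CpG over the libraries and 26 in KO replicate 1. The part of depth or other library properties in this was not tested. The other CpG-poor distal tiles were at 80.9% and 80.5% in WT and 81.3% and 81.5% in KO, where KO replicate 1 was not the highest. As a share of that mean, the members were at 11.5% and 11.5% in WT and at 12.7% and 11.2% in KO (difference 0.439 points, exact permutation p = 1).

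CpG-dense tiles below 20% (17988 tiles) were at 2.23% and 2.21% in WT and 2.19% and 2.13% in KO. As a share of that mean the members were at 416% and 421% in WT and at 471.5% and 429% in KO. Both KO libraries were above both WT libraries on this ratio, by 31.8 points between the means (exact permutation p = 0.333). The difference was 10.7 points without KO replicate 1 and 52.8 without KO replicate 2. With all reads of each class summed in place of a mean over tiles, the groups overlapped and the difference was 6.99 points.

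KO replicate 1 was higher in every level range of the members. At 0 to 5% (1445 tiles) the libraries were at 1.93% and 1.99% in WT and 2.16% and 2.02% in KO. At 15% to 20% (1147 tiles) they were at 17.1% and 16.9% in WT and at 18.9% and 16.9% in KO. Over the members the KO mean was above the WT mean in 2500 tiles and below it in 2092, and 53.6% were higher, near the 53.9% of all 164026 tiles. Both KO libraries lay above both WT libraries in 914 members (19.6%), where all tiles gave 19.5%. Both lay below in 642 members (13.8%), where all tiles gave 14.9%.

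Single members were tested with all other tiles. Calls were limited to changes of 10 points or more with an adjusted p below 0.05. Of 163610 tiles tested 129 were called (0.0788%), and of the 4594 members tested 1 was called. The remaining 72 members, with no methylated read, could not be tested. An unadjusted p under 0.05 was found in 317 members (6.90%), 203 of them higher in KO and 114 lower, against 5.78% of all tiles. By adjusted p alone, with no minimum change, 2 members were called, against 0.102% of all tiles. The second was the deep tile in Gm30821 described above, with a difference of 1.73 points. With the replicate numbers as a block 9 members were called, where 0.208% of all tiles were; the numbers are not known to pair the libraries.

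The called tile lies in Bcl9, a co-activator of beta-catenin in Wnt signalling, at chr3:97296001-97297000. Summed over its 4 analysed CpGs, it had no methylated count among 63 and 95 read counts in the WT libraries. Each CpG had 15 to 18 reads in WT replicate 1 and 23 to 26 in WT replicate 2. The summed counts would allow up to 4.76% and 3.16% if independent, so these limits are too low for CpGs that share fragments. In the KO libraries 13 of 90 summed counts (14.4%) and 22 of 136 (16.2%) were methylated. The rise was 15.3 points (adjusted p = 0.0188, moderated quasi-binomial model, limma). All 4 of its analysed CpGs, within 36 bases of each other, were at 0% in both WT libraries. In the KO libraries they were at 20.8% and 24.3%, 13.6% and 12.1%, 9.09% and 12.1%, and 13.6% and 15.2%. Such close CpGs are read by the same fragments, so they are not independent, though the model counted their reads separately. The call was lost without WT replicate 2 (adjusted p = 0.304, same model) and with limma on log2 ratios (adjusted p = 0.894). Over the settings tried in which the tile was tested, adjusted p ran from 3.24e-06 (Fisher's exact test) to 0.894, and its CpGs were too shallow for a minimum of 20 reads.

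The largest differences above WT, among members that reached 50 reads in each library, were not called. In Sh3pxd2a, which encodes a podosome scaffold protein, the tile was at 7.89% and 5.66% in WT and 29.4% and 22.3% in KO (difference 19.1 points, adjusted p = 0.120, moderated quasi-binomial model, limma). A tile near Gm38819 was at 4.35% and 11.9% in WT and 33.1% and 21.2% in KO. Near Foxp1, a forkhead transcription factor, the levels were 10.8% and 4.0% in WT and 19.8% and 29.6% in KO. In Wdr93 they were 9.92% and 12.4% in WT and 30.7% and 25.8% in KO, and near Gm33388 they were 5.13% and 6.62% in WT and 18.3% and 25.7% in KO. In each of these 5 tiles both KO libraries were above both WT libraries, with adjusted p from 0.0681 to 0.195 by the same model. Tiles picked for a large rise tend to show this. Over all members 19.6% did, and 13.8% had both KO libraries below both WT libraries. Single libraries moved these calls: near Foxp1 the tile was called without WT replicate 1 or KO replicate 1 (differences of 20.7 and 22.2 points), near Gm33388 without KO replicate 1 (19.8), and near Gm38819 and in Wdr93 without KO replicate 2 (25 and 19.5).

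The largest differences in the other direction were smaller. In Gm33148, which lies 32.9 kb from H19 and 38.8 kb from Igf2, a pair of imprinted genes, the tile with the start was at 31.1% and 18.5% in WT and 8.74% and 8.63% in KO (difference -16.1 points). In Upp2, a uridine phosphorylase of liver, the levels were 21.5% and 31.1% in WT and 21% and 2.75% in KO, so KO replicate 1 lay close to WT replicate 1. In Ttc39b they were 20.9% and 17.6% in WT and 1.32% and 8.97% in KO. Near Poli they were 25.5% and 20% in WT and 8.47% and 8.96% in KO, and in Cep85, a centrosomal protein, 18.2% and 27.0% in WT and 13.7% and 3.49% in KO. Adjusted p over these 5 was 0.123 to 0.726. Upp2 was called without KO replicate 1 (difference -23.6 points), and Cep85 without WT replicate 1 (-18.4) or KO replicate 1 (-19.1).

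With all libraries, 37 of the 46 members in the transcription factor genes were higher in KO (80.4%), 8 lower and 1 equal, with a median difference of 1.31 points, where all members gave 53.6% and 0.216 points. Without KO replicate 1 the count was 29 of 46 (63.0%) and the median 0.541 points, against 46.3% and -0.088 points over all members. The means of the list were 8.04% and 8.38% in WT and 10.2% and 9.78% in KO. By these means both KO libraries were above both WT libraries, and also in the plasma protein list (11% and 10.6% in WT, 12.7% and 11.1% in KO), the enzyme and transporter list (11.1% and 10.1%, 12.7% and 11.7%) and the neuronal list (5.97% and 5.48%, 6.66% and 6.79%). By library medians the groups overlapped in the last 3 lists, for example at 12.4% and 11.5% in WT and 12.8% and 10.9% in KO for plasma proteins. The transcription factor medians did not overlap. In the endothelial, stellate and biliary list (8.03% and 7.05%, 11.6% and 7.64%) and the phospholipid list (12.8% and 8.99%, 13.1% and 11.6%) the means overlapped as well. Both KO libraries were above both WT libraries in 11 of the 46 tiles of the transcription factor list and below them in 2, where 19.5% and 14.9% of all tiles were so.

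In the plasma protein list 17 of 29 members were higher in KO, and 11 of 29 without KO replicate 1. In the enzyme and transporter list the counts were 16 of 24 and 11 of 24, and in the phospholipid, choline and methyl donor list 6 of 9 and 5 of 9. In the neuronal list they were 10 of 15 both with and without that library (66.7%), and in the endothelial, stellate and biliary list 4 of 6 both times (66.7%). The order of the lists thus changed with KO replicate 1, and differences between lists were not tested. No tile of any list was called by the moderated quasi-binomial model (limma). An unadjusted p under 0.05, found in 5.78% of all tiles and 6.90% of the members tested, was found in 4 of 45 tested tiles of the transcription factor list, 1 of 29 of the plasma protein list, 3 of 24 of the enzyme list, 2 of 15 of the neuronal list, 1 of 9 of the phospholipid list and 1 of 6 of the endothelial, stellate and biliary list.

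**Figure D5:**
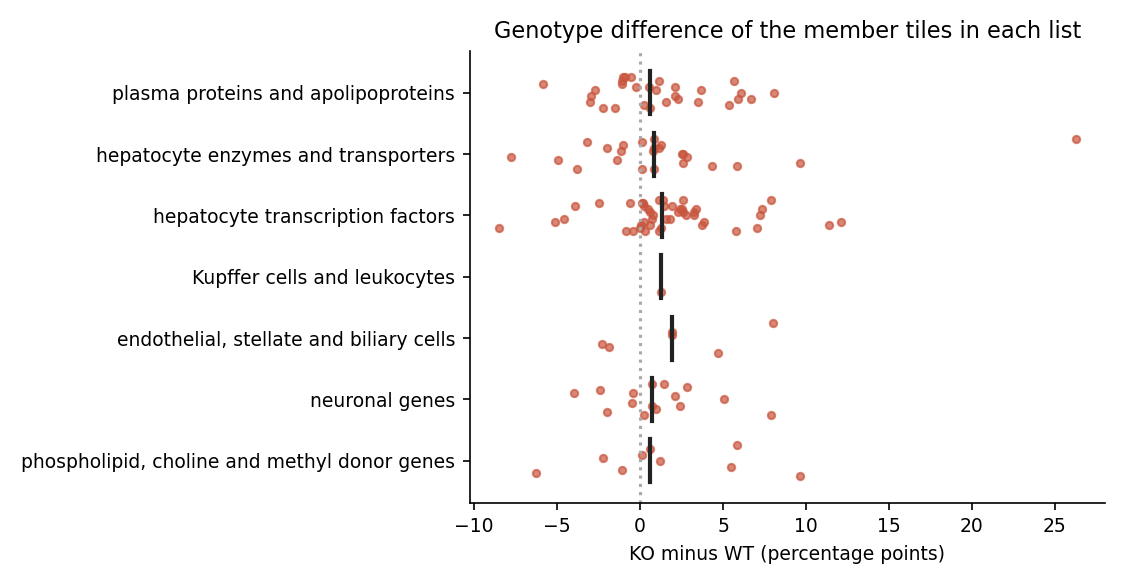
KO minus WT difference (percentage points) of each member tile, by gene list; vertical bars are medians and the dotted line is no difference. The transcription factor list has 37 of 46 tiles to the right of 0.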

How the data were processed

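Per the labels' protocols, liver DNA was digested by MspI and a TaqI enzyme before library construction, conversion and amplification. For each of 4 libraries the authors deposited a track of methylation fractions and a track of read counts (coverage) per cytosine on mm10, made with GBSA per the file headers, negative where the cytosine is on the reverse strand. BWA 0.7.12 and MACS stand in the submitters' processing notes, with no role stated. Multiplying fraction by depth gave whole reads at 100% of cytosines, within 1e-06. Summed over the listed cytosines, the read counts came to 50413170 to 60535892 per library. A read that covers several cytosines is counted at each of them, here and in the tile totals.

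Strands were summed, CpGs with 10 or more reads in every library were kept, and methylated and total reads were summed per 1-kb tile. At 10 reads a count of 0 allows a level of up to 30%. Such limits (3 counts of the total) describe counting error alone, as the reads are amplified copies. A class mean is the unweighted mean of its tiles, compared by exact permutation over libraries.

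Tiles were tested with a moderated quasi-binomial model (limma 3.58.1 in R 4.3.3, two-sided F test, Benjamini-Hochberg over all tiles). Its Pearson dispersion was shrunk to a prior from tiles whose binomial variance reached 5 reads. The model was tested on simulated data with the real depths, with 50 low tiles changed by each amount. These came from all tiles with a mean of 5% to 20%, not from members alone, and were raised in WT or in KO. Simulated reads had a single dispersion and no shared fragments, so recovery at members was not measured. The model called 0%, 22%, 54% and 80% of the tiles changed by 5, 10, 15 and 20 points, where a call needed 10 points. Of its 87 calls there, 10.3% were unchanged tiles. Positions and sequences come from RefSeq tables (GRCm38.p6); no genome was used, so repeats and CpGs outside start windows were not analysed here.

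Members and lists were chosen with earlier results of these data known. Tiles named are the called members, the 5 largest differences each way with 50 or more reads in every library, up to 4 members of lowest mean per list, the 5 of lowest mean with 100 or more reads and 5 or more CpGs, the 5 deepest, those nearest the limit, the longest runs and the 3 most mixed. Further list members named and the start sequences shown were picked after their values were seen, and some tiles that the rule picks are not reported here. Alternatives covered coverage, prior, other tests, tile level, class definition, a replicate block, and leaving out 1 library at a time.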

Additional observations from a re-analysis of the deposited data

How the results depend on the processing

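Members were 4594 of the 163610 tiles tested in the main setting. The count of called members there was 1, of 129 tiles called in all. The count was 2 of 151 with a minimum of 5 reads and 0 of 77 with 20. It was 2 of 143 with a prior from all tiles and 2 of 167 with no minimum difference. By Fisher's exact test on pooled reads it was 34 of 1216. By limma on log2 ratios, where 401 members had an unadjusted p under 0.05, it was 0, and no other tile was called. It was 1 to 12 with a library left out. Among those settings, the one with the most called members also had the most calls over all tiles. The one with the fewest called members had the fewest. With the replicate block the count of called members was 9, of 341 tiles called in all. The numbers are not said to pair the libraries, and deviations of same-numbered libraries had r = -0.016 over members. The difference in the member mean ran from -0.137 to 1.02 points with a library left out, negative without KO replicate 1, and its share of the other CpG-poor distal tiles from -0.286 to 1.16. With the replicate block these differences, 0.440 and 0.439 points, are the same by construction (p = 1, exact permutation). The member number, 4666, was 2046 with 20 reads, 2079 with 5 or more analysed CpGs and 2363 below 10%. The share in genes was 54.9% for protein-coding genes alone, and at a gene end 14.4% inside the tile and 55.8% within 5 kb. With a minimum of 20 reads, chosen after seeing the data, plasma protein, transcription factor and enzyme shares were 36.1%, 20.7% and 11% (10 of 91), against 7.15% over all tiles. The cause was not tested. Depth limits single tiles: at 10 reads a CpG with no methylated read may be as high as 30%.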

Other observations

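Some gene families among the starts in members were noticed after their values were seen, and are given as values. Of 35 genes with zinc finger symbols (Zfp, Zkscan and Zscan, mostly DNA-binding proteins) whose start was in a CpG-poor distal tile, 30 had it in a member, at a median tile level of 0.771%. Of 10 histone genes 8 did, at a median of 0.457%, and their start windows held a median of 11 CpGs. Of 1029 predicted genes and RIKEN clones 172 did, with a median of 5.56%.

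Members also overlapped the hairpins of 8 microRNA genes. The tile of Mir484 was at 0%, 0%, 0.208% and 0% in WT replicates 1 and 2 and KO replicates 1 and 2, and that of Mir713 at 0%, 0%, 0% and 2.13%. The tile of Mir196a-2, in a Hox cluster, was at 7.89% and 8.42% in WT and 6.11% and 6.40% in KO.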
